A study of Homo sapiens with 4 samples.

Results

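The genes described here are 10 imprinted genes, chosen by name from the deposited count table of 40205 gene symbols: the long non-coding RNAs H19, MEG3 and KCNQ1OT1, and the protein-coding genes IGF2, DLK1, GRB10, CDKN1C, PHLDA2, PEG10 and MEST. All 10 were found as rows of the table. They were chosen with the levels of these libraries in view, so their own differences between the groups are given as a description, without a test. The libraries were made from A549, a cell line from a human lung adenocarcinoma, harvested 24 h after small interfering RNA (siRNA) had been transfected into it. In 2 libraries, Knockdown-670 and Knockdown-732, the siRNA was directed at the long non-coding RNA SBF2-AS1, and in 2, NC-1 and NC-2, it was a negative control. All were transfected with the same lipid reagent. The labels do not explain the numbers in the knockdown titles, so whether these 2 libraries had the same siRNA is not known here. Both are treated as replicates. The labels do not say whether replicates were separate cultures either, so each p-value reflects the spread between libraries, and that spread may be technical only.

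An imprinted gene is transcribed mainly from the copy inherited from one parent. Which copy is active depends on a control region that carries methylation on one parental copy only, laid down in the germ line. Imprinted genes sit in clusters in which a long non-coding RNA often lies beside genes for growth control. In the cluster at 11p15 the RNA H19 and the growth factor gene IGF2 share enhancers on opposite parental copies, separated by an insulator that binds CTCF, and KCNQ1OT1 is transcribed from the paternal copy, where it silences CDKN1C and its neighbours. In the cluster at 14q32 MEG3 is maternal and DLK1 paternal. Many of these genes are active in the fetus and placenta, fall silent in most adult tissues, and are often switched on or lose their imprint in tumours. Counts per gene symbol do not tell the parental copies apart, so whether any member was imprinted in these A549 cells was not measured.

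With siRNA to SBF2-AS1, H19 and MEG3 differed most from the controls on the log2 scale among the members that could be tested, in opposite directions. KCNQ1OT1 (log2 1.30, SE 0.21) and PEG10 (log2 -1.17, SE 0.07) came next. Their order by size was reversed with library size only (1.23 and -1.24). H19 was at 23.4% of its control level, while MEG3 was 3.03-fold and KCNQ1OT1 2.46-fold higher. Of the protein-coding genes, PEG10 was at 44.3% of the control level, while GRB10 was 1.71-fold and PHLDA2 1.51-fold higher. MEST was at 1.17-fold the control level. IGF2 and CDKN1C overlapped between the groups, on counts too low to place them closely. DLK1 was barely detected. In the fit across all genes (edgeR's quasi-likelihood test, Benjamini-Hochberg adjusted p of 0.05), 9 of the 10 passed the filter on low counts, 4 of these were called higher and 2 lower. The same fit called 46.3% of 16120 genes, 23.5% higher and 22.8% lower. In 7 of the 9, both knockdown libraries lay on one side of both controls, as they did in 72.6% of all genes tested. Since the genes were picked on this same contrast, nothing is read from these counts. In bulk RNA, fewer cells that express a gene and less of its RNA per cell cannot be told apart.

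The libraries held between 12149767 and 12938143 counts. The RNA that was targeted, SBF2-AS1, had 15 and 18 counts in Knockdown-670 and Knockdown-732, against 57 and 79 in NC-1 and NC-2. Its gene lies on the same chromosome arm as H19, 7.76 Mb away. Of 9 markers of epithelium and of A549 all had counts; their summed level was 7433 and 7493 CPM (library-scaled counts, with library sizes adjusted by TMM) in the knockdown libraries and 13054 and 12411 CPM in the controls, with 7 called lower and 1 higher. The 10 fibroblast markers summed to 20.2 and 15.7 CPM in the knockdown and 15.9 and 14.4 CPM in the controls, with FAP at 0. Trophoblast markers stood below 0.31 CPM in sum in every library, with CGA, CGB, ERVW-1 and PAGE4 at 0. The immune markers summed to 196 and 175 CPM in the knockdown and 74.5 and 72.5 CPM in the controls, of which CD68 made up 181 and 160.03 CPM in the knockdown and 56.6 and 57.8 CPM in the controls, while CD3E, HLA-DRA and MS4A1 were at 0. The part of these marker differences in the members' differences was not tested.

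Several members carry microRNAs, so the RNA of the host gene is also the source of a small RNA that the counts do not show. The hairpin inside the exons of H19 is shown first, 5′ to 3′, with the mature 5p and 3p arms in capitals, and then the mature microRNAs of H19, MEG3 and MEST with the seed (bases 2 to 8) in capitals. All are from RefSeq on GRCh38.p14.
MIR675 hairpin (H19), chr11:1996759-1996831, - strand: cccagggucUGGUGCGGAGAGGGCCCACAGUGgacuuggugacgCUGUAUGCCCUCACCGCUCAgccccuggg
hsa-miR-675-5p (H19): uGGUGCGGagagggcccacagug
hsa-miR-675-3p (H19): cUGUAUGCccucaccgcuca
hsa-miR-770-5p (MEG3): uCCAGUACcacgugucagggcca
hsa-miR-2392 (MEG3): uAGGAUGGgggugagaggug
hsa-miR-335-5p (MEST): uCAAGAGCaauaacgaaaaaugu
hsa-miR-335-3p (MEST): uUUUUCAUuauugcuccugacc

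No 2 of these 6 share a seed. The rows for MIR675, MIR770, MIR2392, MIR335 and, inside IGF2, MIR483 held 0 counts in all 4 libraries. Nothing is read from these zeros about the mature microRNAs. The 14q32 cluster also holds the snoRNA families SNORD112, SNORD113 and SNORD114, and of their 41 rows 35 were at 0 throughout, with no count above 2 in any library.

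RefSeq windows of 300 bases around a gene's start, 250 before and 50 after it, were at hand for 4 of the 10 members, namely H19, MEG3, MEST and GRB10. The 3 below belong to H19, MEG3 and GRB10, the members with windows that were called in the fit; capitals mark TATAAA and TGACGTC, searched on both strands, where overlapping matches merge.
H19, chr11:2001217-2001516, - strand, GRCh38.p14: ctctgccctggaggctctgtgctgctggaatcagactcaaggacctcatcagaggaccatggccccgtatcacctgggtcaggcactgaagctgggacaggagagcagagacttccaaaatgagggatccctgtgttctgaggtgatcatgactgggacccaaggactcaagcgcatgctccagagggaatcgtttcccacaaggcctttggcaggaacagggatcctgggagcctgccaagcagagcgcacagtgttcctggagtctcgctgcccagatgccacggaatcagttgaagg
MEG3, chr14:100825868-100826167, + strand, GRCh38.p14: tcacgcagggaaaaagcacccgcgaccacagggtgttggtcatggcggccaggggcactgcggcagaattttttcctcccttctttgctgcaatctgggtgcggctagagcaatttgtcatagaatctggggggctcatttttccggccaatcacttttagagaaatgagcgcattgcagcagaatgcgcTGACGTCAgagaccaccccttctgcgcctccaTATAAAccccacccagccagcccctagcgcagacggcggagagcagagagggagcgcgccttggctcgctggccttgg
GRB10, chr7:50793404-50793703, - strand, GRCh38.p14: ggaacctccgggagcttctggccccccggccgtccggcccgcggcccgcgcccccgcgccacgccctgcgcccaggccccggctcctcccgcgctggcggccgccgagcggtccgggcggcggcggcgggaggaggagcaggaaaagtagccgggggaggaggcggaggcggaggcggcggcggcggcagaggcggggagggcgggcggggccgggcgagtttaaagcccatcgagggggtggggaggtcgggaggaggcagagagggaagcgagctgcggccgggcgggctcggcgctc

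The MEG3 window shown held TATAAA, which begins 28 bases before the start, and a palindrome in which TGACGTC on the + strand and its match on the - strand overlap, beginning 60 and 59 bases before the start. These distances depend on the start chosen. Before the other RefSeq starts of MEG3, TATAAA begins 18 or 42 bases away and the palindrome 50 or 74. Of 35116 windows of this length, 11.5% held TATAAA and 3.45% held TGACGTC. That second motif, part of the cAMP response element, was searched only after the sequence had been read. Neither was found in the H19 window or in this GRB10 window. In another GRB10 window, chr7:50705252-50705551, TATAAA begins 167 and 159 bases before the start. Over the GRB10 windows, CpG ran from 3 to 49. ACGTG, held by 21.4% of windows, was in none of the 3, and CCCTC, held by 71.2%, was in all 3. The windows differ most in CpG: the H19 window had 6 CpG and 57.7% GC, the MEG3 window 17 and 58.3%, and the GRB10 window 44 and 81.0%, against a median of 14 CpG and 58.7% GC over all windows. The counts are per gene symbol, so the 3 starts that RefSeq gives MEG3 and the 5 each of MEST and GRB10 cannot be told apart.

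H19 is a spliced RNA of the maternal copy that restrains growth, in part through miR-675, and is often abundant in fetal and tumour cells. It had 2.55 and 2.52 CPM in Knockdown-670 and Knockdown-732, against 9.74 and 11.9 CPM in NC-1 and NC-2, from 30 and 32 counts against 126 and 158. Both knockdown libraries lay far below both controls. For counting error only (exact Poisson, 95%), the highest upper limit in the knockdown was 3.63 CPM and the lowest lower limit in the controls 8.10 CPM. Replicates differed by more than counting noise, so these limits are no test of the groups. The log2 fold change was -2.09 (SE 0.21). Of the 16120 genes tested, 0.397% had a lower log2 fold change, which puts H19 at rank 65 from the bottom, with SBF2-AS1 at rank 95. GENCODE v29 places it on the - strand at chr11:1995176-2001470 of GRCh38, in 4 merged exons of 2897 nt.

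MEG3 is a maternal RNA that is lost in many tumours and restrains their growth. It had 107 and 106 CPM in Knockdown-670 and Knockdown-732, against 34.9 and 35.4 CPM in NC-1 and NC-2, with 1259 and 1344 counts against 452 and 468. The libraries of each group lay close together and the groups far apart, with means of 106 ± 0.711 CPM in the knockdown and 35.2 ± 0.300 CPM in the controls (SD, n = 2 each). The log2 fold change was 1.60 (SE 0.08), rank 301 from the top. The gene spans chr14:100779410-100861031 on the + strand in GENCODE v29, with 48 annotated transcripts. The RefSeq start of the MEG3 window above lies inside this span, and distances below are counted from the GENCODE start.

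KCNQ1OT1 is a paternal RNA, unspliced and 91667 nt long, that lies antisense inside the potassium channel gene KCNQ1 and silences its neighbours in cis. It had 8.15 and 8.04 CPM in Knockdown-670 and Knockdown-732, against 3.32 and 3.25 CPM in NC-1 and NC-2, from 96 and 102 counts against 43 in each control. The groups did not overlap, and the log2 fold change was 1.30 (SE 0.21). KCNQ1 itself, whose exons share 121 nt with it on the opposite strand, had 2.29 and 2.68 CPM in the knockdown and 2.78 and 2.12 CPM in the controls, overlapping between the groups (log2 0.02, SE 0.31, edgeR adjusted p = 0.957). No source used here says whether strand was used in counting, and reads of this pair may have been exchanged. If it was not used, reads from unspliced KCNQ1 RNA could fall anywhere in the 91667 nt, beyond the 121 nt shared by exons. The part of such reads in the level of KCNQ1OT1 was not tested. KCNQ1OT1 lies at chr11:2608328-2699994 on the - strand (GENCODE v29, GRCh38).

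**Figure D1:**
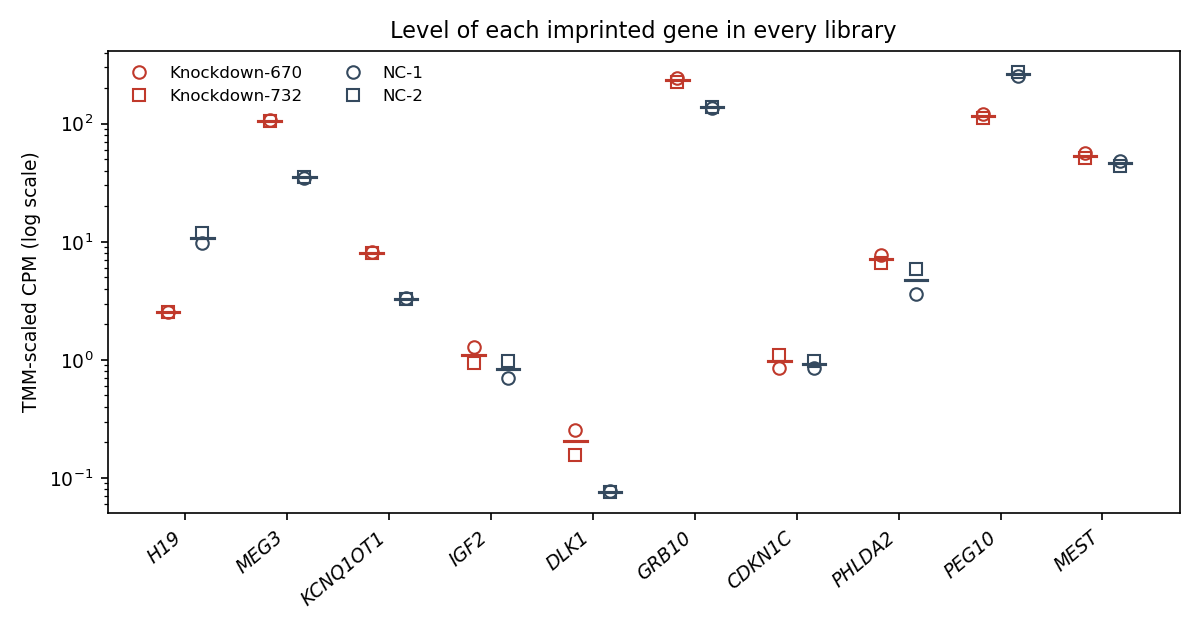
Level of each of the 10 genes in TMM-scaled CPM on a log axis, with Knockdown-670 and Knockdown-732 in red left of NC-1 and NC-2 in dark blue; bars are group means of 2 libraries. H19 and PEG10 stand lower in the knockdown, MEG3, KCNQ1OT1, GRB10 and PHLDA2 higher, and IGF2 and CDKN1C overlap; the DLK1 points rest on 1 to 3 counts per library.

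The growth factor and the ligand of these clusters were near the limit of detection. IGF2, the fetal insulin-like growth factor, had 15 and 12 counts in Knockdown-670 and Knockdown-732, against 9 and 13 in NC-1 and NC-2, that is 1.27 and 0.946 CPM against 0.696 and 0.983 CPM. The groups overlapped (log2 0.39, SE 0.46), and the 95% interval of the log2 fold change was wide, from -0.51 to 1.29. INS-IGF2, a read-through transcript of insulin and IGF2 whose exons share 1460 nt with it, had 15 and 10 counts in the knockdown against 7 and 13 in the controls, so the same reads may have been counted in both rows. Insulin itself was at 0 in all libraries, and the antisense gene IGF2-AS had at most 1 count. DLK1, a membrane ligand related to Delta that keeps progenitor cells undifferentiated, had 3 and 2 counts in the knockdown against 1 and 1 in the controls. All of these lie at or below a floor of 3 counts per library (0.245 CPM in the knockdown, 0.229 CPM in the controls), so no fold is given, and DLK1 was the member not tested. IGF2 lies at chr11:2129112-2149603 on the - strand and DLK1 at chr14:100725705-100738224 on the + strand (GENCODE v29, GRCh38).

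Growth restraint at 11p15 and on chromosome 7 was represented by GRB10, CDKN1C and PHLDA2. GRB10, an adaptor that binds the insulin and IGF1 receptors and damps their signal, had 242 and 228 CPM in Knockdown-670 and Knockdown-732, against 137 and 138 CPM in NC-1 and NC-2. The groups did not overlap, the log2 fold change was 0.77 (SE 0.07), and 90.3% of the genes tested had a lower one. CDKN1C, the cyclin-dependent kinase inhibitor p57, had 10 and 14 counts in the knockdown against 11 and 13 in the controls. It averaged 0.976 ± 0.180 CPM in the knockdown and 0.916 ± 0.0934 CPM in the controls (SD, n = 2 each), and the groups overlapped (log2 0.09, SE 0.46). PHLDA2, a small protein with a pleckstrin homology domain that limits placental growth, had 7.73 and 6.62 CPM in Knockdown-670 and Knockdown-732, against 3.63 and 5.90 CPM in NC-1 and NC-2. The 2 controls differed from each other by more than Knockdown-732 differed from NC-2. Its log2 fold change of 0.58 (SE 0.23) stood at 0.28 without NC-1 and at 0.97 without NC-2. In GENCODE v29 on GRCh38, all 3 lie on the - strand, GRB10 at chr7:50590063-50793462, CDKN1C at chr11:2883213-2885773 and PHLDA2 at chr11:2928273-2929455.

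PEG10 is a paternal gene derived from a retrotransposon, whose product resembles a viral Gag-Pol protein and is needed for the placenta. It was the most abundant member per length in the controls and had 122 and 112 CPM in Knockdown-670 and Knockdown-732, against 251 and 275 CPM in NC-1 and NC-2. Both knockdown libraries lay far below both controls, with 1436 and 1416 counts in the knockdown against 3251 and 3642 in the controls (log2 -1.17, SE 0.07). Among the genes tested, 3.37% had a lower log2 fold change. MEST, a paternal gene for a protein of the hydrolase fold, had 56.4 and 50.9 CPM in Knockdown-670 and Knockdown-732, against 48.4 and 43.7 CPM in NC-1 and NC-2. The groups did not overlap, but the gap between Knockdown-732 and NC-1 was smaller than the spread within either group (log2 0.22, SE 0.09). Both are on the + strand of chromosome 7, PEG10 at chr7:94656325-94669695 and MEST at chr7:130486171-130506465 (GENCODE v29, GRCh38).

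Levels of different members can be compared only per length. In CPM per kb of merged exon, GRB10 stood highest in the knockdown, at 24.0 on average, ahead of PEG10 at 17.5, MEST at 11.2, PHLDA2 at 7.51 and MEG3 at 4.58. In the controls PEG10 led at 39.4, ahead of GRB10 at 14.05, MEST at 9.60 and PHLDA2 at 4.99. H19 exchanged places with MEG3, at 0.875 in the knockdown, below MEG3, and 3.74 in the controls, above MEG3 at 1.51. The level of KCNQ1OT1 per length was only 0.0883 in the knockdown and 0.0359 in the controls, over its single long exon. Scaled to the longest transcript in place of merged exons, MEG3 passed PHLDA2 in the knockdown (8.19 against 7.51) and MEST passed PEG10 (21.4 against 17.6); GRB10 and PEG10 kept the first place in the knockdown and in the controls.

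**Figure D2:**
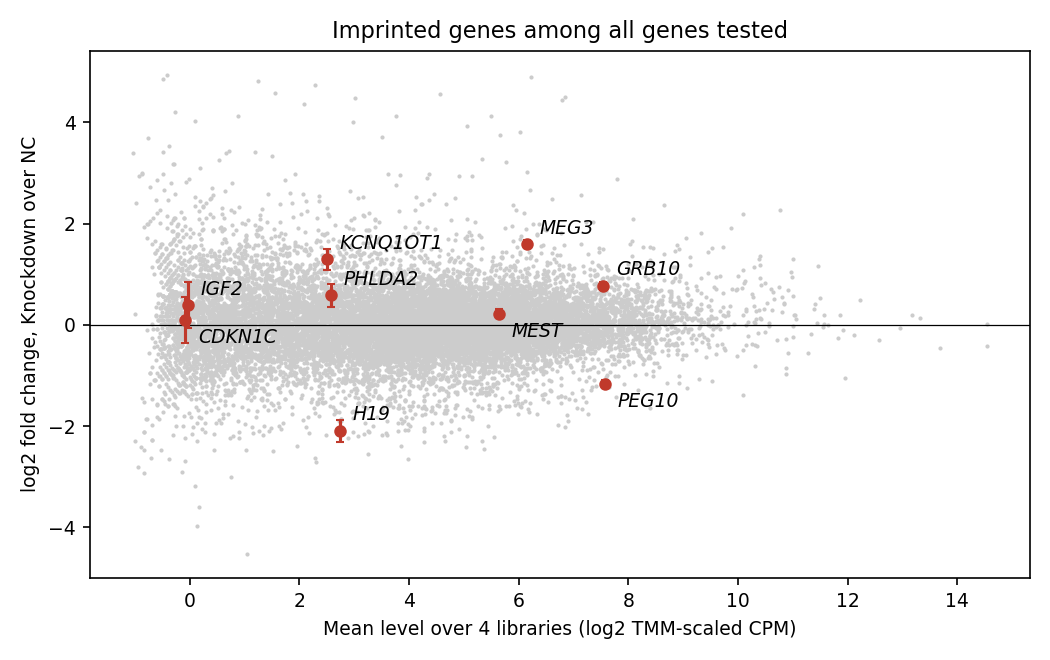
Log2 fold change, Knockdown over NC, against the mean level over the 4 libraries (log2 CPM) for the 16120 genes tested (grey) and the 9 members tested (red, bars are SE). H19 at -2.09 and PEG10 at -1.17 lie below the grey cloud's bulk, MEG3 at 1.60 and KCNQ1OT1 at 1.30 above it, and MEST, CDKN1C and IGF2 lie within it.

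Genes that flank the members were listed by locus and tested. These lists and those below were drawn up with earlier results of these data known. Their shares of calls are therefore given as a description. At 11p15, 4 of 14 tested neighbours rose and 3 fell, and their median log2 fold change was 0.02, against -0.0024 over all genes. MRPL23, a mitochondrial ribosomal protein gene 54.2 kb from the start of H19, had 50.9 and 43.3 CPM in the knockdown and 54.4 and 56.3 CPM in the controls (log2 -0.23, edgeR adjusted p = 0.0476), a call lost in DESeq2 and without NC-1, NC-2 or Knockdown-732. CTSD, the lysosomal protease cathepsin D, rose by 1.02 on the log2 scale (edgeR adjusted p = 8.33e-10). In the domain of KCNQ1OT1 the organic cation transporter SLC22A18, maternal like CDKN1C, rose to 39.6 and 39.6 CPM in the knockdown, against 26.6 and 28.9 CPM in the controls (log2 0.51, edgeR adjusted p = 0.000517). OSBPL5, an oxysterol-binding protein gene that is imprinted in placenta, rose by 0.71 (edgeR adjusted p = 0.000187), and NAP1L4, a histone chaperone, and CARS, the cysteinyl-tRNA synthetase, fell by 0.27 and 0.29. CD81, a tetraspanin, rose by 0.20 (edgeR adjusted p = 0.0291), a call lost in DESeq2, with library size only and without NC-1, NC-2 or Knockdown-670. With library size only, 3 of the 11p15 neighbours rose and 4 fell, with a median of -0.05; over all alternatives the median ran from -0.07 to 0.09.

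At 14q32 the long non-coding RNA MEG9, whose gene starts 285 kb from the GENCODE v29 start of MEG3, rose. It had 3.99 and 4.10 CPM in Knockdown-670 and Knockdown-732, against 1.31 and 1.89 CPM in NC-1 and NC-2 (log2 1.33, SE 0.30, edgeR adjusted p = 0.00133). MEG8, which lies between them, had 3 and 2 counts in the knockdown and 0 and 1 in the controls, too few to test. On the other side BEGAIN, a synaptic scaffold gene, rose to 5.94 and 7.56 CPM in the knockdown, against 3.48 and 2.49 CPM in the controls (log2 1.18, SE 0.24, edgeR adjusted p = 0.00062). At 14q32 6 of 11 tested neighbours rose and 2 fell, that is 72.7% called beside 46.3% of all genes, and the median was 0.33 on the log2 scale (0.27 to 0.43 over the alternatives). This list takes in distant flanking genes, so the share does not describe the imprinted cluster alone. DYNC1H1 and PPP2R5C start 1185 and 982 kb from the start of MEG3, and EVL at -754 kb from that of DLK1. The others that rose were the mitochondrial carrier SLC25A29 (log2 0.67), the tryptophanyl-tRNA synthetase WARS (0.52), which interferon is known to induce, WDR25 (0.42) and the dynein heavy chain DYNC1H1 (0.32). The transcription factor YY1 (-0.27) and the phosphatase subunit PPP2R5C (-0.37) fell. The call of WDR25 was lost in DESeq2, with library size only, with no filter on low counts and without NC-1, Knockdown-670 or Knockdown-732, and that of YY1 in DESeq2 and without Knockdown-670. DIO3OS, a non-coding RNA gene near the far end of the cluster, had 21 and 12 counts in the knockdown and 19 and 18 in the controls (log2 -0.06, edgeR adjusted p = 0.916). DIO3 and RTL1, also listed at 14q32, had too few counts to test and leaned the other way from MEG8. DIO3 had 2 and 0 counts in the knockdown and 6 and 7 in the controls, and RTL1 had 1 and 0 against 1 and 2.

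On chromosome 7, where PEG10, MEST and GRB10 lie in 3 separate clusters, 2 of 15 neighbours tested rose and 7 fell. That is 60.0% called, beside 46.3% of all genes. The median stood at -0.39 on the log2 scale (-0.46 to -0.34 over the alternatives). SGCE, the paternal gene for epsilon-sarcoglycan, starts 0.247 kb from PEG10 on the opposite strand and fell to 41.2 and 38.5 CPM in the knockdown, against 61.4 and 56.2 CPM in the controls (log2 -0.56, SE 0.09, edgeR adjusted p = 5.32e-05). The exons of the pair share 219 nt, so part of their reads may have been exchanged. PPP1R9A, which binds actin and is maternal in some tissues, fell by 0.54 (edgeR adjusted p = 0.000293). ASB4, the substrate receptor of a ubiquitin ligase, fell to 3.57 and 4.57 CPM in the knockdown, against 17.1 and 15.6 CPM in the controls (75.1% lower, edgeR adjusted p = 4.44e-08). The lactonase PON2 fell by 0.39 (edgeR adjusted p = 0.00012). TFPI2, a protease inhibitor at the other end of this cluster, rose by 0.53 (edgeR adjusted p = 3.25e-06).

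Around MEST the carboxypeptidase CPA4, imprinted in some tissues, rose to 4.08 and 5.83 CPM in the knockdown, against 2.01 and 1.06 CPM in the controls (log2 1.69, SE 0.32, edgeR adjusted p = 0.000288). COPG2, a coat protein gene that overlaps MEST on the opposite strand by 228 exonic nt, fell by 0.34 (edgeR adjusted p = 0.0363), and CEP41, a centrosomal gene, by 0.41 (edgeR adjusted p = 0.0159); DESeq2 called neither, COPG2 lost its call without any one of the 4 libraries and CEP41 without NC-1 or NC-2. Near GRB10 the recombination factor FIGNL1 fell by 1.24 (edgeR adjusted p = 1.48e-05), while DDC, imprinted in mouse, had 7 and 5 counts in the knockdown and 15 and 11 in the controls and missed the threshold (edgeR adjusted p = 0.132).

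**Figure D3:**
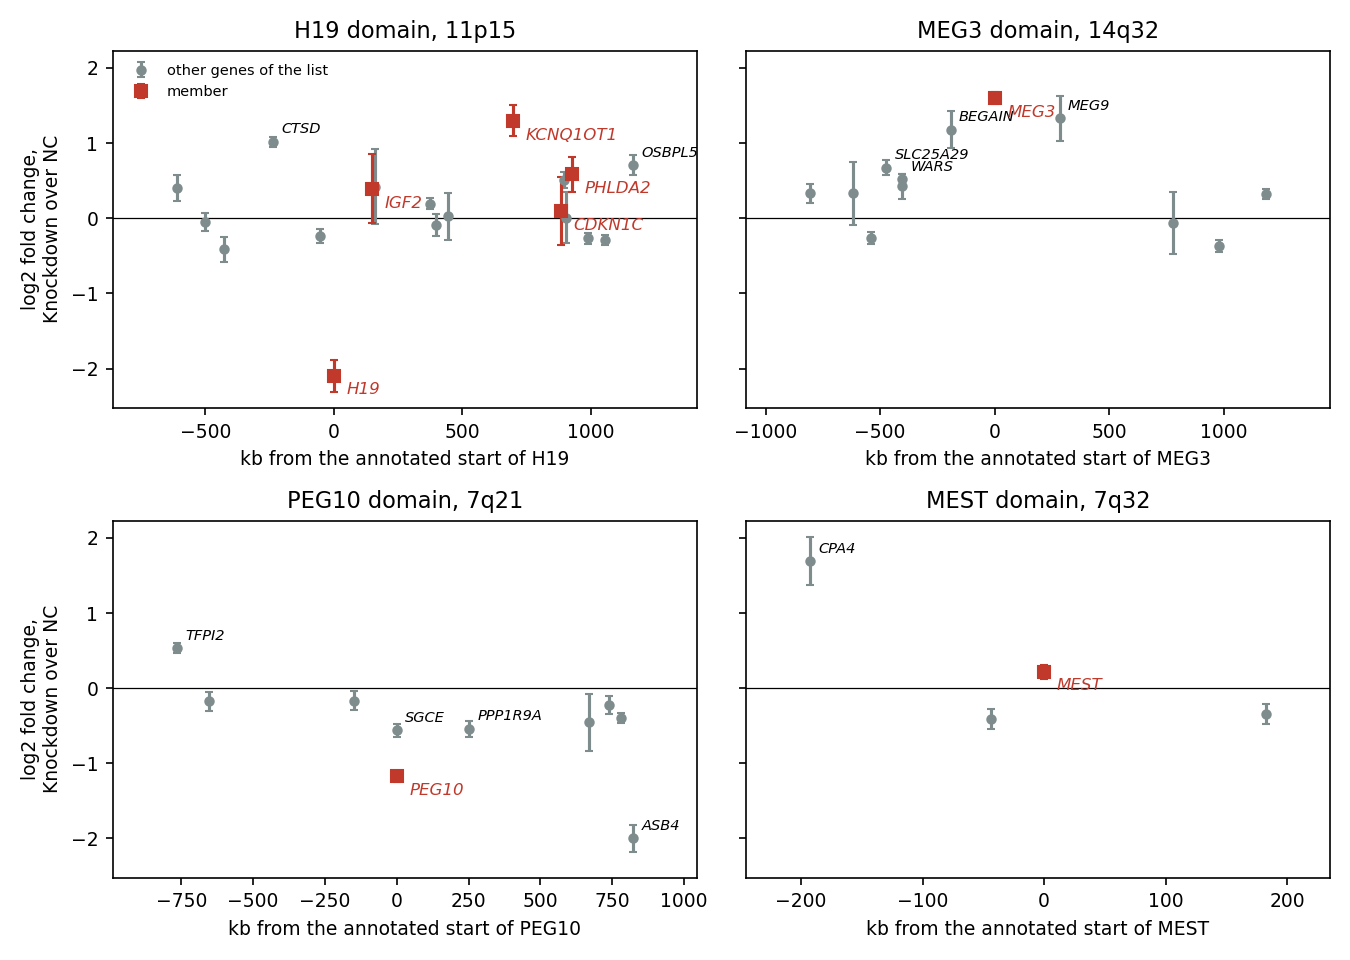
Log2 fold change, Knockdown over NC, with SE, against distance in kb from the annotated start of the first-named member, for members (red) and the other tested genes listed as neighbours (grey), in 4 clusters. H19 at -2.09 lies below all of its neighbours, MEG3 at 1.60 and MEG9 at 1.33 lie on the same side, and PEG10, SGCE, PPP1R9A and ASB4 all lie below 0.

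Imprinted genes at other loci, some of them imprinted only in certain tissues or in mouse, gave a wider view. Of 33 tested, 10 rose and 6 fell, that is 48.5% called beside 46.3% of all genes. Their median was 0.02 on the log2 scale. With library size only 10 rose and 8 fell, and the median was -0.04; over all alternatives it ran from -0.04 to 0.11. The guanine exchange factor RASGRF1 rose by 2.22, with 12 and 15 counts in the knockdown, against 2 and 4 in the controls (edgeR adjusted p = 0.00569), a call lost without NC-1 or Knockdown-732. L3MBTL1, a chromatin reader, rose to 11.1 and 9.06 CPM in the knockdown, against 4.33 and 4.53 CPM in the controls (log2 1.18). IGF2R, the receptor that clears IGF2 and is maternal in mouse, rose to 566 and 578 CPM in the knockdown, against 313 and 323 CPM in the controls (log2 0.85, edgeR adjusted p = 7.67e-09). The transporter ATP10A (log2 0.70), the zinc finger factor PLAGL1 (0.61) and ZDBF2 (0.56) rose as well. PLAGL1 is known in mouse as a regulator of a network that includes H19, Igf2, Cdkn1c, Dlk1 and Mest.

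Those that fell were led by DIRAS3, a small GTPase that is a paternal growth inhibitor, with 11 and 5 counts in the knockdown against 31 and 31 in the controls (log2 -1.84, edgeR adjusted p = 0.00181). LIN28B, which blocks the maturation of let-7, fell by 0.90, the ubiquitin ligase UBE3A by 0.68, ZNF331 by 0.38, RB1 by 0.36 and SLC22A3 by 0.24. The call of RB1 was lost in DESeq2 and without NC-2 or Knockdown-670, that of SLC22A3 in DESeq2 and without NC-1 or Knockdown-670, and that of LIN28B in DESeq2. PEG3, ZIM2, NNAT, SLC38A4 and AIRN were at 0 in all libraries.

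Of 23 tested factors that keep or read the methylation of imprinted control regions, 8 fell and 3 rose, that is 47.8% called, close to the 46.3% of all genes. The median was -0.08 on the log2 scale (-0.14 to -0.03 over the alternatives). The chromatin remodeller HELLS fell by 1.94, and the maintenance methyltransferase DNMT1 fell to 70.7 and 70.8 CPM in the knockdown, against 142 and 151 CPM in the controls (log2 -1.05, edgeR adjusted p = 1.79e-09). CTCF, the insulator protein of the H19 and IGF2 control region, fell to 40.2 and 34.6 CPM in the knockdown, against 65.0 and 64.7 CPM in the controls (log2 -0.80, edgeR adjusted p = 1.23e-06). The cohesin subunits SMC1A, RAD21 and SMC3, which gather at CTCF sites, fell by 1.02, 0.82 and 0.73. The histone methyltransferase EHMT2 (log2 0.61), the oxidase TET3 (0.46) and the methyltransferase DNMT3A (0.34) rose; the call of DNMT3A was lost in DESeq2 and without NC-1, Knockdown-670 or Knockdown-732. TRIM28 was at -0.08 (edgeR adjusted p = 0.437), and its partner ZFP57 had 0 and 6 counts in the knockdown against 2 and 0 in the controls. DNA methylation was not measured.

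In the insulin-like growth factor axis, through which IGF2, GRB10 and IGF2R act, 7 of 15 tested genes rose and 2 fell. That is 60.0% called, beside 46.3% of all genes, and the median was 0.16 on the log2 scale. Scaled by library size alone, 4 genes were called higher and 2 lower and the median was 0.10. The median stood at 0.04 without NC-1 and 0.27 without NC-2. The binding protein IGFBP3 stood at 1905 and 1891 CPM in the knockdown, against 755 and 777 CPM in the controls (log2 1.31), and IGFBP1 rose by 1.41. IGFBP5 rose by 1.14, with 29 and 46 counts in the knockdown, against 23 and 13 in the controls. The receptor INSR rose by 0.32 (edgeR adjusted p = 0.0175), its substrate IRS2 by 0.24 and the RNA-binding protein IGF2BP3 by 0.24, and the receptor IGF1R stood at 0.16 with overlapping groups (edgeR adjusted p = 0.174). IGFBP4 (log2 -0.24) and the RNA-binding protein IGF2BP2 (-0.31) fell. DESeq2 called 4 genes of this list, 3 higher and 1 lower, and did not call INSR, IRS2, IGF2BP2, IGF2BP3 or IGFBP5. With library size only INSR, IRS2 and IGF2BP3 lost their calls. Without NC-2, IGFBP5, IGF2BP3, IGFBP4 and IGF2BP2 lost their calls. IGFBP5 and IGF2BP3 also lost them without Knockdown-732, INSR without NC-1, Knockdown-670 or Knockdown-732, and IRS2 without NC-1 or Knockdown-670.

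Among relatives of the members by descent, 7 of 13 tested rose and 1 fell, that is 61.5% called beside 46.3% of all genes. The median was 0.33 on the log2 scale (0.22 to 0.42 over the alternatives). PEG10 was lower in the knockdown, and 5 relatives derived from the same family of retrotransposons rose. FAM127C rose by 1.22, FAM127A by 1.04, LDOC1L by 0.63, FAM127B by 0.41 and LDOC1 by 0.33, the last a call lost without Knockdown-670. FAM127A, FAM127B and FAM127C are near-identical copies whose reads may have been split between them. CDKN1A, the inhibitor p21, had 374 and 353 CPM in the knockdown and 204 and 229 CPM in the controls (log2 0.75), CDKN1B, or p27, was at 0.15 (edgeR adjusted p = 0.162), beside 0.09 for CDKN1C. GRB14, an adaptor of the same family as GRB10, fell to 20.0 and 18.3 CPM in the knockdown, against 32.2 and 33.3 CPM in the controls (log2 -0.77, edgeR adjusted p = 2.62e-05), and GRB7 was at -0.14 (edgeR adjusted p = 0.444). PHLDA3 rose by 0.21 (edgeR adjusted p = 0.0465) and PHLDA1 was at -0.06 (edgeR adjusted p = 0.489); the call of PHLDA3 was lost in 7 of 9 alternatives.

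Of 12 tested Notch receptors, ligands and targets, to which DLK1 is related, 4 rose and 1 fell, that is 41.7% called, below the 46.3% of all genes. The median was 0.34 on the log2 scale, but it stood at -0.03 without Knockdown-670, at 0.16 in DESeq2 and at 0.16 with no filter on low counts. DLK2, the closest relative of DLK1, was at 0.70 and did not reach the threshold (edgeR adjusted p = 0.0858). The ligands DLL4 and JAG2 rose by 0.67 and 0.47, the receptors NOTCH1 and NOTCH2 by 0.49 and 0.29, and the ligand JAG1 fell by 0.31. Without NC-1, 2 rose and 1 fell, with NOTCH1 and DLL4 no longer called, and DLL4 lost its call without any one of the 4 libraries, in DESeq2 and with library size only. The target HES1 had 125 and 92 counts in the knockdown and 109 and 120 in the controls (edgeR adjusted p = 0.93).

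Among genes tied to H19 and MEG3 in earlier work, as recalled, 5 of 17 tested rose and 7 fell. That is 70.6% called, beside 46.3% of all genes. The median was 0.01 on the log2 scale (-0.08 to 0.11 over the alternatives). The list was drawn up from memory, not from a database. HMGA2, a let-7 target of the fetus and of tumours, rose to 53.0 and 49.3 CPM in the knockdown, against 24.0 and 26.8 CPM in the controls (log2 1.01, edgeR adjusted p = 2.17e-07), and TGFBI, a reported target of miR-675, rose by 1.04 (edgeR adjusted p = 8.72e-10). The ubiquitin ligase MDM2 rose by 0.71, and GDF15, a secreted factor that MEG3 has been reported to raise, was at 0.24 (edgeR adjusted p = 0.204). Of the Polycomb genes, whose complex is reported to bind MEG3, EZH2 fell by 1.32, SUZ12 by 1.05 and EED by 0.83, while JARID2 rose by 0.39, a call lost without NC-1. TSPYL5 rose by 0.42, a call also lost without NC-1, and the splicing factor PTBP1, reported to bind H19 and MEG3, fell by 0.37. The host of the let-7a and let-7b cluster, MIRLET7BHG, had 36 and 41 counts in the knockdown and 36 and 46 in the controls (log2 0.01, edgeR adjusted p = 0.988).

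**Figure D4:**
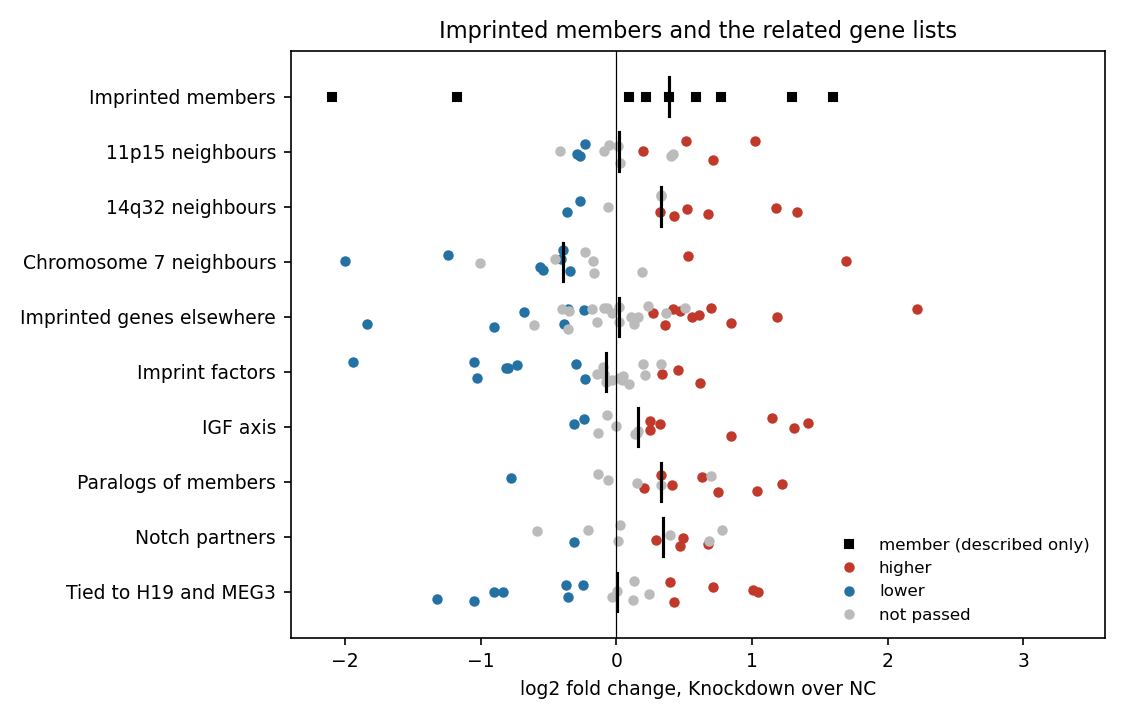
Log2 fold change, Knockdown over NC, of the 9 imprinted members tested (black squares, described only) and of the genes of 9 related lists, red where called higher, blue where called lower and grey where the threshold was not passed; vertical bars are medians. The members run from -2.09 to 1.60, chromosome 7 neighbours have the lowest median at -0.39, and the 14q32 neighbours and the paralogs have medians of 0.33; the Notch median of 0.34 turns to -0.03 without Knockdown-670.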

How the data were processed

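RNA of 4 A549 libraries was sequenced on the Ion Proton, per the labels' protocols. The authors deposited raw counts per gene symbol, 1 column per library; the submitters' processing notes name the build GRCh37, and the aligner, counter, annotation and use of strand are not named in any source used here. Counts were whole and used as they stood. Replicates differed by more than counting noise (chi-square per gene 3.42 and 3.72). The knockdown was set against the control in edgeR 4.0.16 under R 4.3.3, with TMM scaling after filterByExpr and a robust quasi-likelihood fit, and p-values were Benjamini-Hochberg adjusted over 16120 genes; SE is the log2 fold change over the root of F. The coefficient of biological variation was 6.64%. Scripts were tested on simulated data. Members and lists were chosen with earlier results of these data known. Named were all members and, per list, called genes, up to 6 a direction by size, with genes that overlap a member or are its paralogs; MEG8, DIO3OS, DDC, HES1, GDF15 and other genes with no call were named after their values were seen. Positions and lengths are from GENCODE v29 (GRCh38), joined by symbol, not the authors' build; promoter and microRNA sequences are RefSeq's. Alternatives were other scalings, filters, DESeq2 1.42.0 and leaving out each library.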

Additional observations from a re-analysis of the deposited data

How the results depend on the processing

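The number of genes called higher ran from 2568 to 3946 and of those called lower from 2497 to 4265 over 9 alternatives; with library size only the median log2 fold change of all genes was -0.07 (3243 higher, 4265 lower). No called member or called list gene turned its sign, while CDKN1C, with no call, ran from -0.12 to 0.26 when single libraries were left out. Of 82 called list genes, 19 lost their call in DESeq2 and 11 to 15 when 1 library was left out. With library size only MEG3 stood at 1.53, KCNQ1OT1 at 1.23, PEG10 at -1.24 and GRB10 at 0.71 on the log2 scale. Leaving out 1 library at a time gave -2.24 to -1.94 for H19, 1.58 to 1.60 for MEG3, 1.28 to 1.31 for KCNQ1OT1, 0.28 to 0.97 for PHLDA2 and 0.72 to 0.81 for GRB10, and 3 to 5 called Notch genes. DESeq2 called 4 genes of the insulin-like growth factor axis. PHLDA2 lost its call with library size only, in DESeq2 and without NC-1 or Knockdown-670, and MEST gained one with the filter of 5 CPM and without NC-1 or Knockdown-732. That filter removed IGF2, CDKN1C and DLK1. For other movements the cause was not tested. No paired analysis was possible because the titles give the groups no shared replicate numbers. Depth limits IGF2, CDKN1C and DLK1 most, with 1 to 15 counts per library.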
